A study of Mus musculus with 10 samples.

Results

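The genes described here encode the voltage-gated sodium channels, the voltage-gated calcium channels and the HCN channels of mouse amacrine cells, the inhibitory interneurons of the inner retina. Members were all gene symbols of the deposited table that begin with Scn, Cacna, Cacnb or Hcn followed by the subunit's number or letter. This gave 36 of 27933 genes. Together they held 236997 of 171257947 unique molecular identifiers (UMIs, each 1 captured RNA molecule), or 0.1384%. Their 8 families were 10 sodium channel alpha subunits, 4 sodium channel beta subunits, 4 L-type, 3 P/Q-, N- and R-type and 3 T-type calcium channel pores, 4 alpha2delta and 4 beta calcium channel subunits, and 4 HCN subunits.

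A voltage-gated sodium channel is a pore-forming alpha subunit, which carries the upstroke of an action potential, joined by beta subunits that tune its gating. Voltage-gated calcium channels are built on a pore-forming alpha1 subunit, and their alpha2delta and beta subunits help to bring the pore to the membrane. P/Q- and N-type pores serve transmitter release, L-type pores open for long periods and T-type pores open near rest, whereas HCN channels pass a cation current on hyperpolarization. In the retina, some amacrine cells fire sodium spikes and others release transmitter on graded potentials, and the AII amacrine cell starts small spikes at a specialised process rich in sodium channels.

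The study collected single amacrine cells from the retina of Chx10-cre-GFP mice at postnatal day 19, as a single group of 10 libraries with no treatment. Sorted cells lacked GFP and staining for CD133-APC and CD73-PE, and were positive for the viability dye Calcein Blue. The strain's GFP is tied to Chx10, a gene of bipolar cells, and CD133 is the product of Prom1. By the labels, batch 1 held 1 library (library 1), batch 2 held 5 (libraries 2 to 6) and batch 3 held 4 (libraries 7 to 10). Nothing in them ties a library to an animal, so p-values reflect the scatter among libraries, which can be technical.

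Libraries held 950 to 4738 cells and 6302659 to 26028492 UMIs, with a median of 4210 UMIs per cell over all 32523 cells. Of the cell barcodes, 923 occurred in more than 1 library, 312 of them in libraries 5 and 6 and 59 in libraries 2 and 3. Cells were gated on UMIs of named genes. The Gad gate (Gad1 plus Gad2, the GABA-making enzymes, at least 2 UMIs and Slc6a9 at 0) held 16415 cells, and the Slc6a9 gate (the glycine transporter, at least 2 UMIs and both Gad genes at 0) held 4556. Type gates were Gjd2 at 3 UMIs or more (1940 cells), Chat plus Slc18a3 at 2 (651), Slc17a8 at 2 (666), Vip at 5 (930), Nos1 at 2 (234) and Prom1 at 2 (1358). Depth differed between gates, with a median of 5411 UMIs per cell in the Gad gate and 3664 in the Slc6a9 gate. Among type gates the median ran from 3981 (Prom1) to 13892.5 (Nos1), and it was 7462 in the Chat+Slc18a3 gate. Levels are CPM, a gene's UMIs scaled to the total UMIs of a gate's cells in 1 library, given as mean ± SD over libraries (n = 10, or 9 for Prom1, where library 1 held 9 cells). UMIs were read at RNA 3′ ends, so CPM are not per length and levels are compared between gates for 1 gene, not between genes.

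The gates carried the amacrine markers Pax6, Tfap2a, Tfap2b and Slc32a1, whose summed level averaged 1881.3 to 3768.0 CPM. The Chat+Slc18a3 gate also carried the starburst genes Sox2 at 246 ± 71.0 CPM and Slc5a7 at 255 ± 73.7 CPM, which the gate did not use. Of the AII genes that the Gjd2 gate did not use, Prox1, Dab1 and Nfia stood at 285 ± 25.5, 150 ± 23.1 and 220 ± 33.8 CPM there, against 47.2 ± 6.18, 54.5 ± 10.2 and 55.4 ± 19.5 CPM in all other cells, and Calb2 at 725 ± 296 against 839 ± 97.5 CPM. The list as a whole did not single out this gate, since its summed level was 2075.9 ± 426.1 CPM here and 6751.1 ± 1594.1 CPM in the Chat+Slc18a3 gate, where Calb2 alone averaged 6661.7 CPM. Prox1 and Dab1 also averaged 224 and 202 CPM in the Prom1 gate. Of the rod genes, Gnat1 averaged 0.979 CPM and Sag 50.8 CPM in the Gad gate, and 1.27 and 50.4 CPM in the Gjd2 gate, and the part of free RNA in these levels was not tested. The summed levels of 6 bipolar markers averaged 59.5 CPM in the Nos1 gate to 203.9 CPM in the Slc17a8 gate, and the highest single value was 583.1 CPM in a Chat+Slc18a3 library. The summed levels of 6 ganglion cell markers averaged 91.4 CPM in the Chat+Slc18a3 gate to 312.2 CPM in the Nos1 gate. Müller glia markers could not serve as a clean check, because Glul stood at 403 ± 54.3 CPM in the Gad gate and Slc1a3 at 211 ± 59.6 CPM in the Slc17a8 gate.

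Cells of the Slc6a9 gate had higher levels than those of the Gad gate of the sodium channel genes Scn1a and Scn9a, the T-type pore Cacna1h and the alpha2delta subunit Cacna2d3. The pores Cacna1a, Cacna1e and Cacna1i, the alpha2delta subunits Cacna2d1 and Cacna2d2, the beta subunits Cacnb2 and Cacnb3, and Scn3a and Scn3b were lower, each by at least 2-fold. Of 36 members, 28 passed the filter on low counts. By edgeR's quasi-likelihood test with the library as a block and Benjamini-Hochberg adjustment over all genes (threshold 0.05), 7 were higher and 13 lower. Of all 11253 genes tested, 32.1% were called higher and 29.1% lower. The median log2 change was −0.29 over the members that passed the filter and 0.03 over all genes tested.

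The 8 members that were not tested were rare. Among them, Scn10a had 1 UMI in all cells, Scn4a 3, Scn4b 5, Scn11a 37, Scn7a 127, Cacna1s 150 and Cacna1f 318. Scn4a is the skeletal muscle sodium channel, and Scn10a and Scn11a are best known from sensory neurons. Cacna1f is the L-type pore of photoreceptors and Cacna1s that of skeletal muscle. Cacna1s was untested but uneven, at 1.62, 3.74 and 5.71 CPM in the lowest, median and highest Slc6a9-gate library (58 UMIs in all) and at 0, 0.290 and 0.541 CPM in the Gad gate (29 UMIs). It averaged 4.71 ± 2.96 CPM in the Gjd2 gate (63 UMIs) and 0.491 ± 0.262 CPM in all other cells. The level was higher in 10 of 10 libraries without overlap in both comparisons, which was noticed after the values were seen.

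**Figure D1:**
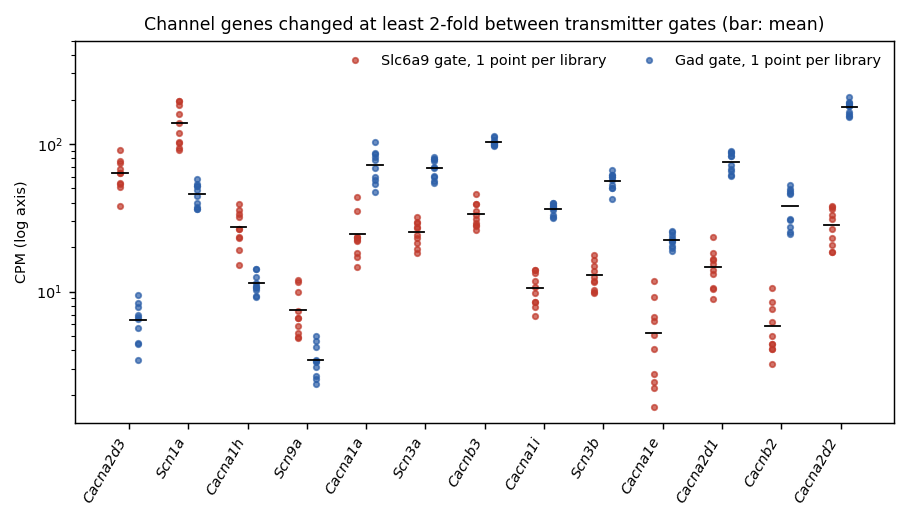
Levels (CPM, log axis) of 13 channel genes that differed at least 2-fold between the Slc6a9 gate (red) and the Gad gate (blue), 1 point per library and a bar for the mean of 10 libraries. The points of both gates are separate for every gene except Scn9a.

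Scn1a encodes Nav1.1, an alpha subunit found at initial segments of fast-spiking neurons. Its level was 90.3 CPM in the lowest library, 128 in the median and 197 in the highest of the Slc6a9 gate, against 36.4, 46.8 and 57.6 CPM in the Gad gate. The gates did not overlap, and within the Slc6a9 gate the 5 libraries of batch 2 lay above the other 5. The log2 change was 1.60 (SE 0.06, edgeR adjusted p = 3.52e-15), with a higher level in 10 of 10 libraries.

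Scn9a (Nav1.7) was scarce, with 909 UMIs in all cells. Its level was 7.52 ± 2.72 CPM in Slc6a9-gate cells and 3.47 ± 0.883 CPM in the Gad gate, between the rod genes Gnat1 and Sag in both, and the gates overlapped. That is a log2 change of 1.15 (SE 0.17, edgeR adjusted p = 5.34e-06), with a higher level in 9 of 10 libraries.

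Scn3a (Nav1.3), an alpha subunit of young neurons, went the other way. Its level was 18.2, 25.6 and 31.8 CPM in the lowest, median and highest Slc6a9-gate library, and 54.5, 69.4 and 81.6 CPM in the Gad gate, without overlap. Scn3a had a log2 change of −1.43 (SE 0.06, edgeR adjusted p = 1.35e-14). Scn3b, the beta3 subunit, was also lower in every library, at 12.9 ± 2.77 against 56.2 ± 7.12 CPM (edgeR adjusted p = 1.77e-15).

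The remaining tested sodium channel genes were not called. Scn2a1, which encodes Nav1.2, stood at 52.2 ± 10.2 CPM in Slc6a9-gate cells and 56.7 ± 9.80 CPM in Gad-gate cells (edgeR adjusted p = 0.332). Scn2b, the beta2 subunit, stood at 106 ± 28.9 and 114 ± 25.8 CPM (edgeR adjusted p = 0.131), and was called lower when Gjd2-gated cells were left out (log2 change −0.20, adjusted p = 0.00276). Scn8a (Nav1.6) averaged 32.6 and 30.7 CPM. Scn1a therefore made up 52.5% ± 5.38 of the UMIs of all sodium channel alpha subunits in the Slc6a9 gate and 21.9% ± 0.797 in the Gad gate, while the share of Scn3a was 9.95% ± 1.97 and 32.9% ± 0.940.

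Some of the sodium channel alpha subunit genes are neighbours in the genome. In GENCODE M21 (GRCm38, the assembly named mm10), Scn3a lies on chromosome 2 at 65457118 to 65567627 (minus strand), Scn2a1, there under the symbol Scn2a, at 65620771 to 65767447 (plus), Scn1a at 66270778 to 66440840 (minus), Scn9a at 66480080 to 66634962 (minus) and Scn7a at 66673425 to 66784914 (minus). The adjacent pair Scn1a and Scn9a was higher in the Slc6a9 gate, Scn3a was lower, Scn2a1 was not called and Scn7a was not tested.

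Of 8 calcium channel pores tested, 5 were lower in the Slc6a9 gate, and Cacna1h was the tested pore that was higher by at least 2-fold. All 3 P/Q-, N- and R-type pores were called lower. Cacna1a (P/Q-type) was at 14.7, 22.8 and 43.9 CPM in the lowest, median and highest Slc6a9-gate library and at 47.1, 73.6 and 103 CPM in the Gad gate. No libraries of the gates overlapped, and the log2 change was −1.42 (SE 0.11, edgeR adjusted p = 6.81e-10). Cacna1e (R-type) was at 5.22 ± 3.31 against 22.3 ± 2.33 CPM (log2 change −2.29, SE 0.18, edgeR adjusted p = 2.73e-10). Cacna1b (N-type) differed by less, with a log2 change of −0.32.

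T-type pores, which open near the resting potential and let cells fire in bursts, split by gene. Cacna1h (Cav3.2) stood at 15.2, 26.5 and 39.0 CPM in the lowest, median and highest Slc6a9-gate library and at 9.21, 10.9 and 14.3 CPM in the Gad gate, with a log2 change of 1.28 (SE 0.10, edgeR adjusted p = 3.39e-10). Cacna1i (Cav3.3) stood at 10.6 ± 2.68 against 36.3 ± 3.10 CPM, with a log2 change of −1.79 (SE 0.09, edgeR adjusted p = 2.08e-13). Neither gene's gates overlapped. Cacna1g (Cav3.1) was not called, at 27.3 ± 4.76 and 28.2 ± 6.18 CPM. The 2 L-type pores tested moved little: Cacna1d (Cav1.3) was called higher by 0.25 and Cacna1c (Cav1.2) lower by 0.55 on the log2 scale. The L-type pore Cacna1s was untested but uneven, as given above.

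The alpha2delta subunits are extracellular proteins anchored to the membrane that carry calcium channels to release sites, and Cacna2d1 and Cacna2d2 are the targets of gabapentin. Cacna2d3 stood at 38.2, 63.4 and 90.3 CPM in the lowest, median and highest Slc6a9-gate library and at 3.45, 6.67 and 9.50 CPM in the Gad gate. The gates were far apart, and the log2 change of 3.28 (SE 0.13, edgeR adjusted p = 2.83e-15) was the largest among the 28 members tested in this comparison. Cacna2d2 stood at 18.6, 28.7 and 38.0 against 152, 182 and 209 CPM, again without overlap (log2 change −2.65, SE 0.07, edgeR adjusted p = 3.30e-18). Cacna2d1 stood at 14.7 ± 4.33 against 75.7 ± 11.4 CPM (log2 change −2.36, SE 0.09, edgeR adjusted p = 1.86e-15), and Cacna2d4 was not called.

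Within the alpha2delta family, Cacna2d3 took 51.0% ± 9.73 of UMIs in the Slc6a9 gate and 2.28% ± 0.560 in the Gad gate. Cacna2d2 took 23.0% ± 6.05 and 63.6% ± 1.80. The summed level of the 4 genes was 123.6 ± 12.5 CPM for Slc6a9-gate cells and 278.7 ± 30.8 CPM for Gad-gate cells.

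**Figure D2:**
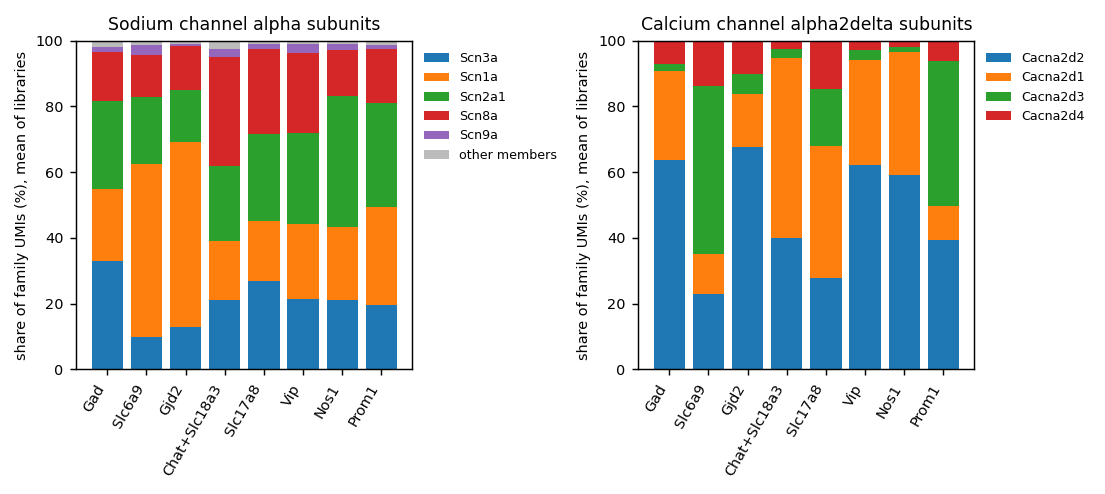
Shares of the UMIs of sodium channel alpha subunits (left) and of alpha2delta subunits (right) taken by each gene in 8 gates, as means over 10 libraries (9 for Prom1), in percent. Scn1a takes 52.5% in the Slc6a9 gate and 56.3% in the Gjd2 gate, and Cacna2d3 takes 51.0% in the Slc6a9 gate and 44.0% in the Prom1 gate.

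Calcium channel beta subunits sit on the inner face of the pore. Cacnb4 was higher in the Slc6a9 gate in 10 of 10 libraries, at 161 ± 22.2 against 106 ± 6.57 CPM (log2 change 0.61, SE 0.04, edgeR adjusted p = 1.41e-10). Cacnb3 was lower, at 33.5 ± 6.20 against 103 ± 5.23 CPM (log2 change −1.63, SE 0.06, edgeR adjusted p = 2.21e-15), as was Cacnb2, at 5.82 ± 2.38 against 38.2 ± 11.3 CPM (log2 change −2.64, SE 0.13, edgeR adjusted p = 9.25e-14). Cacnb1 was called lower at a smaller change. Cacnb4 took 76.5% ± 2.05 of beta subunit UMIs in the Slc6a9 gate and 40.2% ± 1.65 in the Gad gate, and Cacnb3 15.9% ± 1.97 and 39.1% ± 1.98.

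HCN subunits pass a cation current when a cell is hyperpolarized. Hcn2, Hcn3 and Hcn4 were not called between these gates, with log2 changes of −0.12, −0.25 and −0.33.

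Promoters are shown for Cacna2d3 and Cacna2d1, which differed in opposite directions between the Slc6a9 and Gad gates, and for the neighbours Scn1a and Scn9a, which were both higher in the Slc6a9 gate. In the Gjd2 gate, described further on, Scn1a was higher and Scn9a lower than in other cells. Each is the 250 bases before the RefSeq gene start (GRCm38.p6), read 5′ to 3′ on the gene's strand, and capitals mark letters of an E-box, CANNTG, or of a GC box, GGGCGG on either strand.
Cacna2d3: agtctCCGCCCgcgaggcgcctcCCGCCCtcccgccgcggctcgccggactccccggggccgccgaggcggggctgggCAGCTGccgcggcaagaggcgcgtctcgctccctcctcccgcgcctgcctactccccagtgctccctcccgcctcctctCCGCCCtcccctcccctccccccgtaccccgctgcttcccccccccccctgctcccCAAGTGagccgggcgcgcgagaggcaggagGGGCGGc
Cacna2d1: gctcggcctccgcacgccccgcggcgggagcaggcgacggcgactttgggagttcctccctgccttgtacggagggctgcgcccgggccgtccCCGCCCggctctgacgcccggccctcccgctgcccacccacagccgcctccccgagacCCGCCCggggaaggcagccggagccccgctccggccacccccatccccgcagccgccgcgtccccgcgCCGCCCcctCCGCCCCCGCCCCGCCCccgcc
Scn1a: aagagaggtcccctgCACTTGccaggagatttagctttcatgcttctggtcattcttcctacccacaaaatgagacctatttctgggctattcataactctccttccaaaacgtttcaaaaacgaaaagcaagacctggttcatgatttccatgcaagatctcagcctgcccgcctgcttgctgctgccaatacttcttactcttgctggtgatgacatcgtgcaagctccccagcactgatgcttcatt
Scn9a: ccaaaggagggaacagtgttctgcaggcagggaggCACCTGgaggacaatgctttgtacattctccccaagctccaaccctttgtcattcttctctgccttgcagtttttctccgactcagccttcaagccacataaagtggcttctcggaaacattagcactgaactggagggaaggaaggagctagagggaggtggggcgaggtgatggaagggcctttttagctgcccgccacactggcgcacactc
Their positions are chr14:29721865-29722114 (minus) for Cacna2d3, chr5:15934441-15934690 (plus) for Cacna2d1, chr2:66440838-66441087 (minus) for Scn1a and chr2:66634963-66635212 (minus) for Scn9a. Both alpha2delta promoters are rich in G and C, at 80% and 82.4%, against 46.8% for Scn1a and 54.4% for Scn9a.

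RefSeq had a single promoter record for 18 of the 36 members. Of these, 11 held an E-box and 9 a GC box, against 66.2% and 32.7% of all 32851 promoters, with both strands searched. CCAAT was found in 4 members (33.8% of all promoters), TATAAA in 0 (12.4%), TGACAG, a MEIS motif, in 2 (15.9%) and the palindromic EBF motif in 0 (0.779%). The median share of G and C was 62% in the 18 members and 52.4% in all promoters. A match is a run of letters, and no binding was measured.

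Of the Gjd2-gated cells, 934 met the Slc6a9 gate and 222 the Gad gate. With these cells left out of both gates, the log2 change was 0.67 for Scn1a and 0.55 for Cacna1h. The edgeR adjusted p-values were 6.87e-06 and 1.06e-03, so both genes were still called higher, at under 2-fold. Cells with fewer than 3 Gjd2 UMIs stayed in. Cacna2d3 had a log2 change of 3.68 without those cells.

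The share of cells in the Slc6a9 gate was 8.13 to 11.3% in batch 2 and 21.2 to 23.2% in batch 3, and that in the Prom1 gate 1.31 to 1.97% and 8.86 to 10.6%. A test of the difference between the batches, added after the data were seen, called 8 of 29 members and 8.19% of all genes (edgeR adjusted p under 0.05). Every one of these 8 members kept its direction within each batch. Without Prom1-gated cells, 2 members were called, Cacna1a and Cacnb4, and 2.76% of all genes.

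Genes that work with these channels were read from a list of 26, of which 21 were tested. In the Slc6a9 gate, 7 were higher and 13 lower than in the Gad gate. The same comparison called 32.1% of all 11253 genes higher and 29.1% lower. All 4 fibroblast growth factor homologous factors, which bind sodium channel tails and adjust inactivation, were called: Fgf11 was higher and Fgf12, Fgf13 and Fgf14 were lower. Fgf14 stood at 3.17 ± 1.49 against 76.8 ± 4.23 CPM, without overlap (log2 change −4.61, SE 0.12, edgeR adjusted p = 2.02e-18). Ank3, which encodes the initial segment anchor ankyrin-G, was higher at 335 ± 25.9 against 149 ± 26.0 CPM (log2 change 1.22, SE 0.06, edgeR adjusted p = 4.25e-14). All 3 active zone genes and all 4 tested genes of the sodium leak channel complex were lower, as was Pex5l, the HCN-binding protein TRIP8b (log2 change −1.52, SE 0.06, edgeR adjusted p = 1.13e-15). Among the active zone genes, Rims1 stood at 182.8 ± 77.0 CPM in the Gad gate. That gate held 505 of the 651 cells of the Chat+Slc18a3 gate, where Rims1 averaged 2985.2 CPM. Rims1 was not examined without these cells.

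Each type gate was next compared with all other cells of the same libraries, so the 6 comparisons share most of these other cells and their values stand side by side. Cells of a type that a gate missed stay among the other cells.

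**Figure D3:**
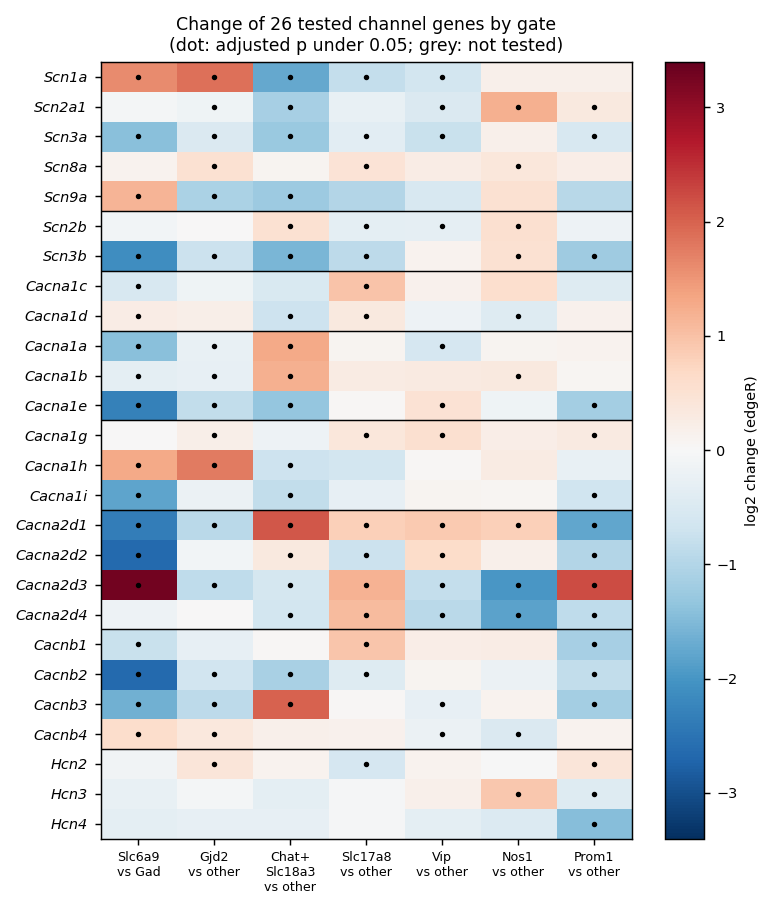
Log2 change of 26 tested channel genes (rows, by family) in 7 comparisons (columns), as a colour from blue (lower) to red (higher); dots mark edgeR adjusted p under 0.05 and grey cells were not tested. Scn1a and Cacna1h are red in the Slc6a9 and Gjd2 columns, and Cacna2d1 and Cacnb3 are red in the Chat+Slc18a3 column.

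Gjd2 encodes connexin 36, the gap junction protein through which AII cells couple. Of the 1940 cells in its gate, 934 also met the Slc6a9 gate and 222 the Gad gate. Cells of the Gjd2 gate had higher Scn1a and Cacna1h. Of 29 members tested, 7 were higher and 12 lower, where 23.9% and 24.5% of 11648 genes were called. The median log2 change was −0.14 over these members and 0.00 over all genes.

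Scn1a stood at 154, 182 and 232 CPM in the gate and at 39.2, 51.4 and 64.4 CPM in other cells (lowest, median and highest), with a log2 change of 1.88 (SE 0.09, edgeR adjusted p = 8.40e-13). Cacna1h stood at 39.8 ± 4.38 against 12.0 ± 1.91 CPM (log2 change 1.76, SE 0.08, edgeR adjusted p = 4.62e-13). For both genes, no library of the gate overlapped the other cells. Scn9a was lower at 2.34 ± 1.37 against 5.52 ± 0.752 CPM (log2 change −1.08, SE 0.24, edgeR adjusted p = 8.12e-04), beside 1.27 ± 0.840 CPM of the rod gene Gnat1 in the gate. A further 15 called members changed less than 2-fold, with log2 changes from −0.92 to 0.51.

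When both sides were limited to the Slc6a9 gate, Cacna1h was still higher, with a log2 change of 1.84, and Scn1a was higher by more than 2-fold. That comparison tested 16 members and called 12, where 44.7% of 7159 genes were called. Among partner genes of the Gjd2 gate, Stac2, which encodes a calcium channel adaptor, stood at 233 ± 24.8 against 76.8 ± 4.38 CPM (log2 change 1.63, SE 0.06, edgeR adjusted p = 7.49e-15). Fgf11 had a log2 change of 1.55 and Nfasc, the initial segment adhesion protein neurofascin, 1.16.

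Chat makes acetylcholine and Slc18a3 loads it into vesicles, and both mark starburst amacrine cells, whose dendrites release transmitter and compute the direction of motion. Cells of the Chat+Slc18a3 gate had higher P/Q- and N-type pores, Cacna2d1 and Cacnb3, and lower sodium channel alpha subunits. Of 28 members tested, 6 were higher and 14 lower, where 16.8% and 18% of 11418 genes were called. The median log2 change was −0.52 over these members and −0.01 over all genes.

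Cacna2d1 stood at 158, 242 and 307 CPM in the lowest, median and highest library of the gate and at 45.8, 57.3 and 69.7 CPM in other cells. Its log2 change was 2.11 (SE 0.08, edgeR adjusted p = 2.79e-18). Cacnb3 stood at 188, 316 and 412 against 74.5, 80.4 and 84.5 CPM, with a log2 change of 2.01 (SE 0.08, edgeR adjusted p = 1.87e-18). Both genes were higher in 10 of 10 libraries, without overlap. Cacna2d1 took 54.5% ± 9.41 of alpha2delta UMIs in this gate, and Cacnb3 66.1% ± 4.16 of beta subunit UMIs.

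The P/Q-type pore Cacna1a stood at 66.8, 156 and 247 CPM in the gate and at 41.3, 64.4 and 96.7 CPM in other cells (log2 change 1.29, SE 0.09, edgeR adjusted p = 3.51e-12). The N-type pore Cacna1b stood at 66.2 ± 13.4 against 30.2 ± 4.25 CPM (log2 change 1.21, SE 0.09, edgeR adjusted p = 2.43e-11). Cacna1a overlapped between libraries although each library's own gate was higher, and Cacna1b did not overlap. The R-type pore Cacna1e was lower, at 6.35 ± 6.03 against 20.9 ± 3.58 CPM (log2 change −1.32, SE 0.23, edgeR adjusted p = 3.59e-05). The summed level of the 3 pores was 220.0 ± 68.6 CPM in this gate and 126.1 ± 23.5 CPM in the Gad gate.

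Of 5 sodium channel alpha subunits tested, 4 were lower and Scn8a was not called. Scn1a stood at 6.53, 17.3 and 28.7 CPM in the gate and at 49.4, 63.8 and 80.7 CPM in other cells, without overlap (log2 change −1.74, SE 0.13, edgeR adjusted p = 1.02e-11). Scn2a1 stood at 24.2 ± 9.59 against 60.2 ± 9.35 CPM and Scn3a at 24.1 ± 13.6 against 65.4 ± 11.7 CPM, with log2 changes of −1.13 and −1.26 and edgeR adjusted p-values of 4.46e-09 and 4.34e-08. Neither overlapped, and Scn3a was at 0 in library 1. The summed alpha subunits were 105.9 ± 28.8 CPM here and 209.5 ± 33.5 CPM in the Gad gate.

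Scn9a was at 2.59 ± 3.91 CPM in the gate and had a log2 change of −1.24 (SE 0.46, edgeR adjusted p = 0.0354). Leaving out library 1, 2, 4, 5, 6, 7 or 8 ended this call, with adjusted p from 0.0532 to 0.114, and DESeq2 gave 0.0678. Scn3b and Cacnb2 were lower as well, with log2 changes of −1.56 and −1.09.

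The starburst gate's partner genes held the largest value of the list. Rims1, which encodes an active zone protein that binds calcium channels, stood at 1421.4, 3128.2 and 4329.0 CPM in the lowest, median and highest library of the gate and at 34.2, 40.9 and 54.8 CPM in other cells. The log2 change was 6.19 (SE 0.10, edgeR adjusted p = 5.18e-27). The other active zone genes did not follow it, as Rims2 had a log2 change of −0.89. Pex5l (−1.61), Fgf13 (−1.51) and Fgf14 (−1.17) were lower, and Stac3 (2.42) and Nrcam (1.16) were higher on the log2 scale, each with an edgeR adjusted p under 0.05.

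**Figure D4:**
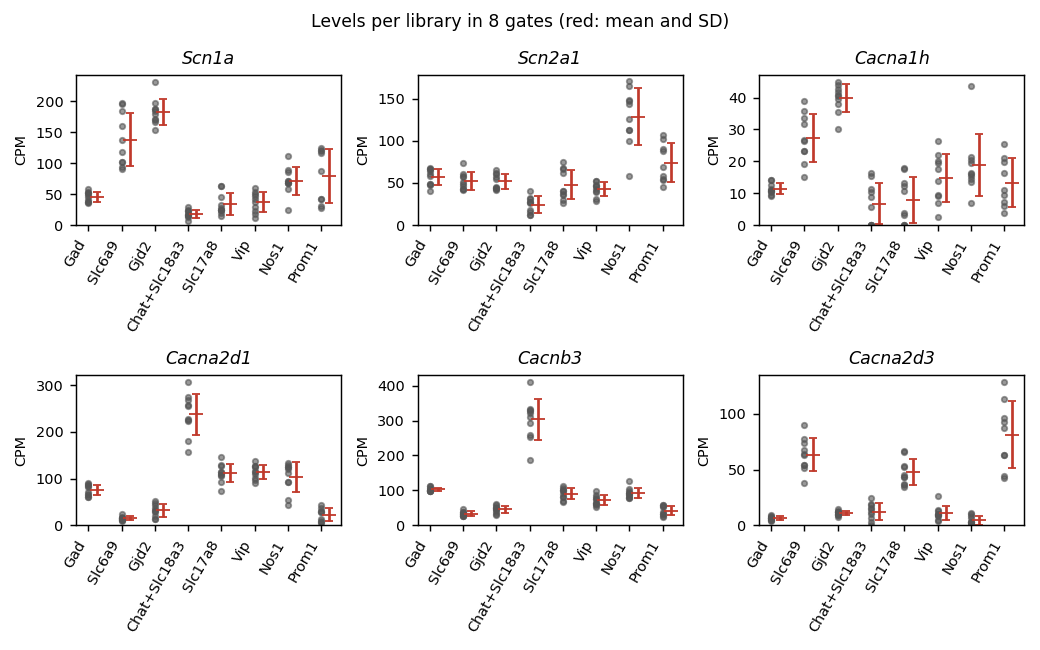
Levels (CPM) of 6 channel genes in 8 gates, 1 grey point per library with the mean and SD in red (n = 10, or 9 for Prom1). Scn1a and Cacna1h are highest in the Gjd2 gate, Scn2a1 in the Nos1 gate, Cacna2d1 and Cacnb3 in the Chat+Slc18a3 gate, and Cacna2d3 in the Prom1 gate.

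Slc17a8 encodes the vesicular glutamate transporter VGLUT3, which marks an amacrine cell that releases glutamate. Of the 666 cells in its gate, 190 also met the Slc6a9 gate and 56 the Gad gate. Of 28 members tested, 8 were higher and 8 lower in this gate, where 10.6% and 14.5% of 11460 genes were called. Cacna2d4, the alpha2delta subunit of photoreceptors, stood at 26.5, 41.8 and 57.0 CPM in the lowest, median and highest library and at 16.0, 19.4 and 22.5 CPM in other cells. It was higher in every library, without overlap (log2 change 1.07, SE 0.12, edgeR adjusted p = 2.59e-08), and had a log2 change of 1.80 with both sides limited to the Slc6a9 gate. Bipolar markers summed to 203.9 ± 116.1 CPM in this gate and 90.6 ± 22.1 CPM in all cells, and 59 of its 666 cells held at least 3 UMIs of 5 bipolar markers. Without cells that carried bipolar or Müller glia markers, the log2 change of Cacna2d4 was 1.03 (SE 0.16, edgeR adjusted p = 1.02e-06).

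Cacna2d3 stood at 34.5, 44.1 and 66.3 CPM in the Slc17a8 gate and at 12.3, 20.6 and 27.0 CPM in other cells (log2 change 1.18, SE 0.13, edgeR adjusted p = 1.89e-08). Within the Slc6a9 gate this call was lost, at a log2 change of 0.19 (SE 0.21, edgeR adjusted p = 0.581). The other 14 called members of the gate had log2 changes from −0.89 to 0.96. Median log2 changes were −0.04 over tested members and −0.01 over all genes.

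Vip encodes vasoactive intestinal peptide. In the Vip gate 4 members were higher and 10 lower of 28 tested, where 12.5% and 13.1% of 11430 genes were called, and none reached 2-fold. The log2 changes ran from −0.91 to 0.89, and the medians were 0.06 over tested members and 0.00 over all genes. Cacna2d1 and Cacna2d2, named after their values were seen, stood at 114 ± 15.0 and 224 ± 23.8 CPM in the gate and at 61.1 ± 11.7 and 144 ± 24.0 CPM in other cells. Neither overlapped, with log2 changes of 0.89 and 0.62 (edgeR adjusted p = 1.96e-12 and 8.52e-13).

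Nos1 encodes neuronal nitric oxide synthase. Cells of the Nos1 gate were deep, with a median of 13892.5 UMIs per cell, and libraries held 10 to 42 of them. Of 28 members tested, 9 were higher and 4 lower, where 16.7% and 17.2% of 11249 genes were called, with medians of 0.21 and −0.05. The 6 ganglion cell markers summed to 312.2 ± 100.7 CPM in this gate (167.1 to 485.6 over libraries) and 159.3 ± 15.9 CPM in all cells, and their part in the gate's channel levels was not tested. Nefl and Sncg made up most of that sum, at 162 ± 58.9 and 140 ± 104 CPM, whereas Rbpms was at 6.33 ± 5.08 CPM, Slc17a6 at 1.86 ± 3.31 CPM and Pou4f2 at 0. The summed amacrine markers, at 1881.3 CPM, were lower here than in the other 7 gates.

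Scn2a1 stood at 58.3, 134 and 170 CPM in the lowest, median and highest library of the Nos1 gate and at 43.4, 58.2 and 67.7 CPM in other cells. Library 1, with 10 cells in the gate, was the lowest and the only library that overlapped. The log2 change was 1.21 (SE 0.09, edgeR adjusted p = 2.39e-14). Scn2a1 took 39.9% ± 7.56 of alpha subunit UMIs in this gate.

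Cacna2d3 was lower in the Nos1 gate at 4.64 ± 3.98 against 21.3 ± 4.70 CPM (log2 change −1.97, SE 0.29, edgeR adjusted p = 5.92e-07), and Cacna2d4 at 5.12 ± 4.23 against 20.2 ± 2.25 CPM (log2 change −1.82, SE 0.29, edgeR adjusted p = 1.99e-06). Neither overlapped. With both sides limited to cells of at least 10000 UMIs, an alternative added after the data were seen, the log2 changes were 1.06 for Scn2a1, −1.03 for Cacna2d3 and −1.83 for Cacna2d4, and all 3 were still called. Cacna2d3 lost its call when the gate minimum was doubled (log2 change −0.97, edgeR adjusted p = 0.130).

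Prom1 encodes CD133, an antigen the sort was set to remove, and 802 of the gate's 1358 cells also met the Slc6a9 gate. Of 29 members tested, 4 were higher and 13 lower, where 15% and 16.9% of 12141 genes were called, with medians of −0.45 and 0.01. Cacna2d3 stood at 42.0, 87.1 and 129 CPM in the lowest, median and highest library and at 13.7, 18.2 and 22.1 CPM in other cells. It was higher in all 9 libraries, without overlap (log2 change 2.22, SE 0.15, edgeR adjusted p = 5.95e-09), and had a log2 change of 1.11 with both sides limited to the Slc6a9 gate.

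Cacna2d1 was lower in the Prom1 gate at 22.7 ± 14.1 against 64.7 ± 10.5 CPM (log2 change −1.77, SE 0.18, edgeR adjusted p = 1.21e-06), and Cacnb3 at 42.2 ± 13.9 against 88.8 ± 4.21 CPM (log2 change −1.16, SE 0.11, edgeR adjusted p = 6.29e-07). Neither overlapped.

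Scn3b, Cacna1e, Cacnb1 and Hcn4 had log2 changes of −1.20, −1.15, −1.12 and −1.44 in the Prom1 gate. Within batch 2, the calls of Cacna1e, Cacnb1 and Hcn4 were lost, with edgeR adjusted p-values of 0.261, 0.246 and 0.270. With both sides limited to the Slc6a9 gate, Scn3b lost its call, at 0.650. The make-up of the gate changed with the batch as given above, and its part in these values was not tested.

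A test across the 6 type gates, over cells that met exactly 1 of them, called all 25 members tested and 79.3% of 7679 genes (edgeR F test, adjusted p under 0.05). Among members, F was 227 for Cacnb3, 164 for Cacna2d1, 141 for Cacna2d3 and 128 for Scn1a. Mean CPM, unlike this test, was taken over all cells of each gate, including cells that met several gates. By mean CPM, 13 of the 25 members were lowest in the Chat+Slc18a3 gate, and 4 were highest there: Cacna1a, Cacna1b, Cacna2d1 and Cacnb3. The Nos1 gate was highest for 7, among them Scn2a1, Scn2b, Scn3a and Scn3b, and the Gjd2 gate for 4, among them Scn1a, Cacna1h and Cacnb4. Neighbouring gates in these orders were not tested against each other.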

How the data were processed

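Single-cell RNA counts of mouse amacrine cells were analysed, per the labels' protocols from Chromium 3′ v2 libraries. The authors deposited 1 table of counts, whole UMIs per gene and cell, for 32523 cells, and per the submitters' processing notes used Cell Ranger 2.1.0 and the build mm10. How genes were annotated, cells filtered or doublets removed is not given in the sources used here. No cell was removed and no doublet caller was run; cells had 601 genes or more. The members, gates and lists were chosen with earlier results of these data known. Counts of members cover all 36, but the values of 3 members and of 1 marker are not reported here.

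Counts were summed per library and gate where both sides held at least 10 cells, and tested with edgeR 4.0.16 in R 4.3.3 (quasi-likelihood test after filterByExpr and TMM, the library as a block, Benjamini-Hochberg adjusted p under 0.05). The SE is the absolute log2 change divided by the square root of F. Genes were named at an absolute log2 change of at least 1, and in the first comparison also at 50 CPM in either gate. On simulated data for that comparison (11198 genes), 99% of log2 changes of 1 and 100% of those of 2 were recovered and 0.0545% of unchanged genes were called. All simulated libraries were drawn from the pooled Gad-gate profile, with the same scatter for every gene and no batch effect. Changes were set in 100 and 98 of the genes tested, none of them scarce, so the rates do not cover scarce members. Alternatives were DESeq2 1.42.0, its size factors, no low-count filter, no block, single batches, other gates and depths, and each library left out. Gene positions are from GENCODE M21.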

Additional observations from a re-analysis of the deposited data

Results flagged for a closer look

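In 3 of 52 levels looked at, 1 library stood apart from the others of its gate by Dixon's test at 95%, which chance gives in about 1 of 20 groups. In the Chat+Slc18a3 gate, Scn9a was 12.2 CPM in library 9 (nearest library 5.66). In the Prom1 gate, Cacnb1 was 18 CPM in library 5 (nearest 10.5) and Hcn4 was 9.89 CPM in library 3 (nearest 4.2).

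The difference between the Slc6a9 and Gad gates itself differed between batch 3 and batch 2 for 8 members by edgeR's test of that difference (adjusted p under 0.05), of which 6 are given. As batch 3 minus batch 2 on the log2 scale, it was 0.71 for Cacna1a, −1.30 for Cacna1e, −0.55 for Cacna2d2, 0.82 for Cacna2d3, −0.30 for Cacnb4 and −0.30 for Scn1a. Without Prom1-gated cells these values were 0.67, −1.02, −0.47, 0.52, −0.25 and 0.02, and Cacna1a (adjusted p = 0.0213) and Cacnb4 (adjusted p = 0.0432) were still called. In the Gad gate, Cacna1a averaged 83.9 CPM in batch 2 and 54.5 CPM in batch 3, against 24.8 and 26.4 CPM in the Slc6a9 gate.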

How the results depend on the processing

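Of 42 named member results, 31 kept their direction and side of the threshold under every alternative run for them, and over 945 such values 23 lost the call, 2 gained it and 0 changed direction. Counts of called members stayed within 1.5 times in 167 of 177 alternatives. With both sides limited to 1 transmitter gate, the counts were 12 (19 before) for Gjd2, 6 (16) for Slc17a8 and 10 (17) for Prom1, where 16, 14 and 20 members were tested and 44.7%, 24.6% and 21.5% of all genes were called. Within batch 3, with 4 libraries, they were 12 (20) for Chat+Slc18a3 and 9 (14) for Vip. Within batch 2, with 5 libraries, they were 8 (13) for Nos1 and 10 (17) for Prom1. The share of all genes called is not given for these fits or for the counts that follow. A fall in these counts therefore cannot be read as a trait of the members. For Nos1, doubled gate minimums gave 7 (5 libraries left), leaving out the 5% of cells with most UMIs 3 (3 libraries) and cells of 2000 to 10000 UMIs 0 (2 libraries). These alternatives changed the number of cells, their depth and the number of libraries together, so the part of each cannot be told apart. Leaving out 1 library gave 20 to 22 called members for Slc6a9 against Gad, 18 to 20 for Gjd2, 17 to 21 for Chat+Slc18a3, 14 to 19 for Slc17a8, 14 to 16 for Vip, 10 to 12 for Nos1, 13 to 15 for Prom1 and 22 to 25 across the 6 type gates. Without the replicate block, the counts were 20, 13, 19, 14, 11, 12, 15 and 25 in that order, and with shared barcodes left out, an alternative added after the data were seen, 21, 20, 19, 19, 14, 11, 17 and 23. Batch 1 holds 1 library and could not be fitted alone.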
